A study of Mus musculus with 90 samples.

Results

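The transcription factors of the mouse pluripotency network were followed in single oocytes and cleavage embryos. The members are Pou5f1, Nanog, Sox2, Sall4, Klf4, Klf5, Klf17, Esrrb, Nr5a2 and Tbx3, taken by symbol, and each had its own row among the 24422 genes of the count table. All 10 were described in 6 groups of libraries, and 9 of them passed the filter on low values and were tested, Sox2 being the exception. The rule used the symbol alone and no measured value.

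Pou5f1 (the gene of OCT4), Sox2 and Nanog form the core of the circuit that keeps inner cell mass and embryonic stem cells undifferentiated, and the proteins OCT4 and SOX2 often bind side by side on DNA. Around this core stand Sall4, a zinc finger partner of OCT4, the Krüppel-like factors, the orphan nuclear receptors Esrrb and Nr5a2, and the T-box factor Tbx3. Some of these transcripts are already stored in the oocyte, whereas others are made only after the embryonic genome has been switched on, and maternal transcripts are broken down in the same period.

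Libraries were made from single MII oocytes and from single embryos cultured from the zygote in KSOM medium, at 21 to 23 h after hCG for oocytes, 45 to 47 h after fertilization for the 2-cell (2c) and 71 to 73 h for the 8-cell (8c) stage. All donor females were sexually mature superovulated CD-1 mice, either wild type (WT) or homozygous for the Plag1 knockout, and embryos of both groups were sired by WT studs, so that embryos of the group called matPlag1KO are heterozygous and lack only the maternal allele, whereas the oocytes of that group come from knockout females. After libraries with a median level below 1 CPM (counts scaled to a common library total) were left out (12 of 90), 16 WT and 14 matPlag1KO oocytes, 11 and 11 2c embryos, and 15 and 11 8c embryos remained. Those left out were 2 matPlag1KO oocytes, 3 WT and 3 matPlag1KO 2c embryos, and 4 matPlag1KO 8c embryos, so that more were lost in matPlag1KO. Many of them shared a well. All lost 8c libraries were wells E6 (31 and 1 spike-in counts) and F8 (12 and 0) of plates A and B, where kept libraries held at least 6645. At 2c, wells C1 (WT) and D3 (matPlag1KO) were also left out on both plates. Why these wells were low was not tested. The labels do not say which female an oocyte or embryo came from, so p-values measure the spread between these libraries alone.

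The kept libraries held 92475 to 2502421 gene counts, and group medians ran from 148473 (WT 2c) to 649899 (matPlag1KO oocytes), with 564009 in WT and 393914 in matPlag1KO 8c embryos. Plag1 itself, the targeted gene, had a count in 16 of 16 WT oocytes (median 24.3 CPM) and in 3 of 14 matPlag1KO oocytes (4 counts in all). At 2c, 9 of 11 embryos labelled matPlag1KO held 91 counts together, against 1 count in the 11 WT embryos. The embryos labelled matPlag1KO carry a paternal WT allele, so Plag1 counts do not check the labels of embryos. Plag1 counts were found again in 5 of the 15 WT 8c embryos and 4 of the 11 matPlag1KO ones. Of 12 markers of cumulus and granulosa cells, 6 had no count in WT and 6 none in matPlag1KO oocytes, and the summed level of the list was 0 to 47.3 CPM in WT and 7.59 to 41.4 CPM in matPlag1KO oocytes, most of it Cyp19a1, the aromatase (medians 14.0 and 12.7 CPM). In 8c embryos the median of that sum was 0 in both genotypes.

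In mm9 coordinates the members lie on 9 chromosomes, with Klf4 (chr4:55540009-55545347) and Klf17 (chr4:117429264-117438271) sharing chromosome 4, both on the minus strand. Pou5f1 lies at chr17:35642977-35647722, Nanog at chr6:122657507-122664651, Sox2 at chr3:34548917-34551382, Klf5 at chr14:99697910-99712628, Esrrb at chr12:87702067-87862578 and Tbx3 at chr5:120120871-120134733, all on the plus strand. Sall4 (chr2:168573832-168592701) and Nr5a2 (chr1:138740161-138857025) are on the minus strand. These are whole gene rows of the deposited table, exons and introns together. Retrocopies of Pou5f1 and Nanog exist elsewhere in the mouse genome, and how reads shared with them were counted is not given in the sources used here.

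The 250 bases before the start of Nanog, Pou5f1 and Klf17 are printed because these genes carry the results: Nanog was nearly without counts until 8c, and Pou5f1 and Klf17 were the members called, with each library as a replicate, for a change of the genotype difference between 2c and 8c. The sequences are read 5′ to 3′ on the strand of each gene from the NCBIM37 (mm9) genome, and capitals mark every match to a motif that was searched on both strands.
Nanog, chr6:122657257-122657506, plus strand: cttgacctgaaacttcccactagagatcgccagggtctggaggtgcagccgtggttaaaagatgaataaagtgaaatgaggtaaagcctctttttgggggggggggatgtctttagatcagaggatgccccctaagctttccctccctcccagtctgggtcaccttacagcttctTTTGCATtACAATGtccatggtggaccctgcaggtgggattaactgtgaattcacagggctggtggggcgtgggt
Pou5f1, chr17:35642727-35642976, plus strand: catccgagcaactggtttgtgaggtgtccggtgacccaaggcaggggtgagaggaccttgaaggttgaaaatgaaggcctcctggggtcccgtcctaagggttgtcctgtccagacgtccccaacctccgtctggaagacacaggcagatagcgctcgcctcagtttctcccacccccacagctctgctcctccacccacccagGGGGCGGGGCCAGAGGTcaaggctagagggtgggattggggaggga
Klf17, chr4:117438272-117438521, minus strand: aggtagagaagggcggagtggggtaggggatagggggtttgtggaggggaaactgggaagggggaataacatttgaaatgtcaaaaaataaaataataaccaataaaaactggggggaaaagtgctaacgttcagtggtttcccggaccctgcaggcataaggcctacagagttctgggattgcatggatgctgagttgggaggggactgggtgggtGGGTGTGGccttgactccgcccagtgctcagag
The motifs were the POU octamer core ATGCAAA, the SOX core CATTGT, the Krüppel-like site CCACACCC, the orphan nuclear receptor site CAAGGTCA, the T-box site AGGTGTGA and, by name, the PLAG1 consensus.

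Nanog was the only member with both an octamer core (bases -75 to -69) and a SOX core (-67 to -62), both on the opposite strand with a single base between them. The octamer core stood in 3.95% and the SOX core in 9.3% of the 24323 windows of the same length in the table. Sox2 also held an octamer core (-99 to -93), and Klf17 held the Krüppel-like site at -33 to -26, a motif of 3.26% of all windows. The PLAG1 consensus had a match in 4 of 10 members (Pou5f1, Sox2, Klf4 and Tbx3), against 19.7% of all windows and 23.7% of the windows of tested genes, and Klf17 had none. The window of Sall4 lies wholly, and that of Tbx3 in part, within a transcript that the GENCODE annotation starts further upstream. The nuclear receptor site and the T-box site had no match in any member. A match describes these letters in this window and was not read as a bound site.

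**Figure D1:**
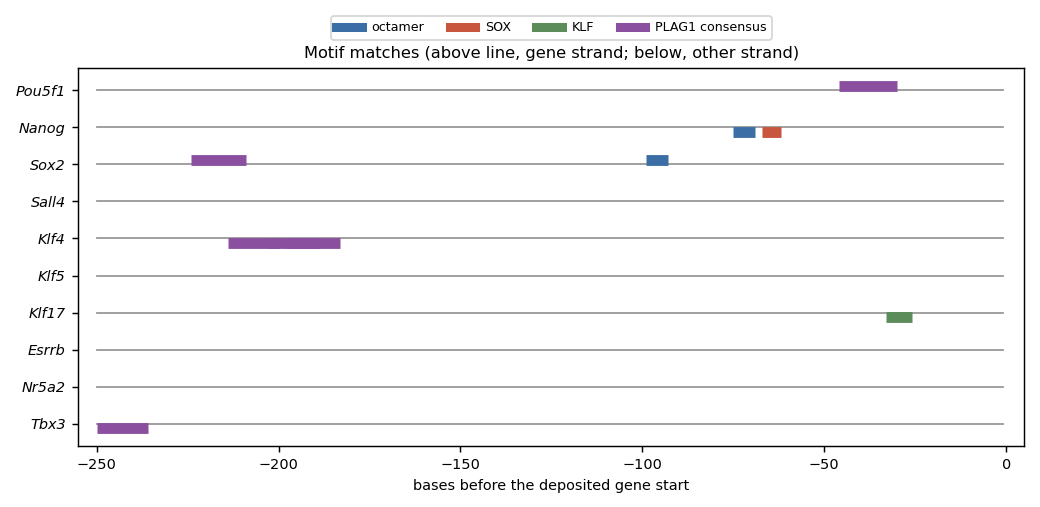
Motif matches in the 250 bases before the deposited start of each member. The horizontal axis is the distance from the gene start in bases, each line is a member, blocks above the line lie on the strand of the gene and blocks below it on the other strand. Only Nanog shows an octamer core next to a SOX core.

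The level of each member is given as CPM on library sizes scaled by the trimmed mean of M values (TMM), as the lowest, the median and the highest library of a group. CPM describe a share of the transcripts of a whole oocyte or embryo. Stages were compared with the spike-in RNA of each library as its size, which follows the amount captured per oocyte or embryo. Capture used an oligo(dT) primer and so reads transcripts with a poly(A) tail. A changed tail and a changed amount cannot be told apart. The number of transcripts per cell and the number of cells cannot be told apart either. A call is an adjusted p under 0.05 in the quasi-likelihood test of edgeR, adjusted by Benjamini-Hochberg over all 16511 genes tested.

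**Figure D2:**
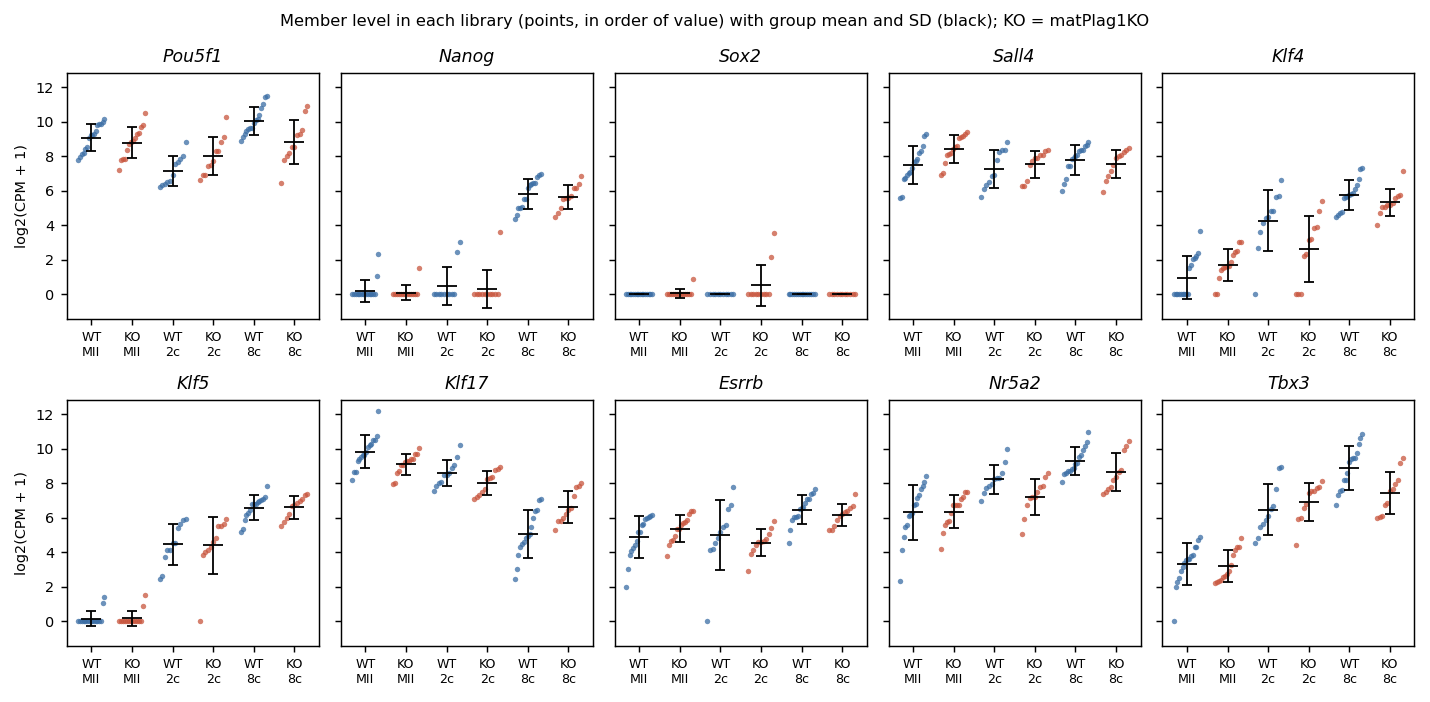
Level of the 10 members in each kept library, as log2(CPM + 1) on the vertical axis, for WT (blue) and matPlag1KO (red) MII oocytes, 2c and 8c embryos. Points are libraries placed in order of value, and black marks are the group mean with its SD. Nanog is near 0 until 8c, Klf5 in oocytes, Sox2 throughout, and Klf17 falls from stage to stage in WT.

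From MII oocytes to WT 2c embryos, Klf4, Klf5 and Tbx3 rose and Pou5f1, Klf17, Esrrb and Sall4 fell, so that 3 of 9 tested members were higher, where 14.1% of all genes were, and 4 were lower, where 51.3% were. With TMM scaling, which called 4540 of 16511 genes higher and 3814 lower, the members counted 4 higher and 2 lower. From WT 2c to 8c, 8 members rose and Klf17 alone fell, against 31.9% of all genes higher and 16.2% lower. With TMM scaling 6 members rose and 1 fell, against 3475 of 16511 genes higher and 4767 lower. Between MII and 8c in WT, 5 members were higher (27.1% of all genes) and Klf17 and Sall4 lower (43.6%). TMM scaling gave 7 higher (5949 of 16511 genes) and 1 lower (5996). In matPlag1KO, 2 members rose (13.5% of all genes) and 4 fell (50.3%) between MII and 2c, 7 rose (29.1%) and none fell (19.5%) between 2c and 8c, and 5 were higher (24.1%) and 2 lower (45.2%) at 8c than at MII. TMM scaling turned the balance from MII to 2c in matPlag1KO to 5 higher (4799 of 16511 genes) and 2 lower (3192). It gave 6 higher (3501) and 1 lower (5008) from 2c to 8c. From MII to 8c it left 5 higher (5708) and 2 lower (5617). The neighbouring comparisons share their 2c libraries. In all comparisons of stages each library was a replicate, and none was examined with wells summed. The median gene fell by 1.46 on the log2 scale from MII to 2c in WT with spike-in scaling and by 0.03 with TMM scaling, and the median moved by 0.53 and -0.12 from 2c to 8c. In matPlag1KO those medians were -1.42 and 0.14, then 0.30 and -0.31.

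**Figure D3:**
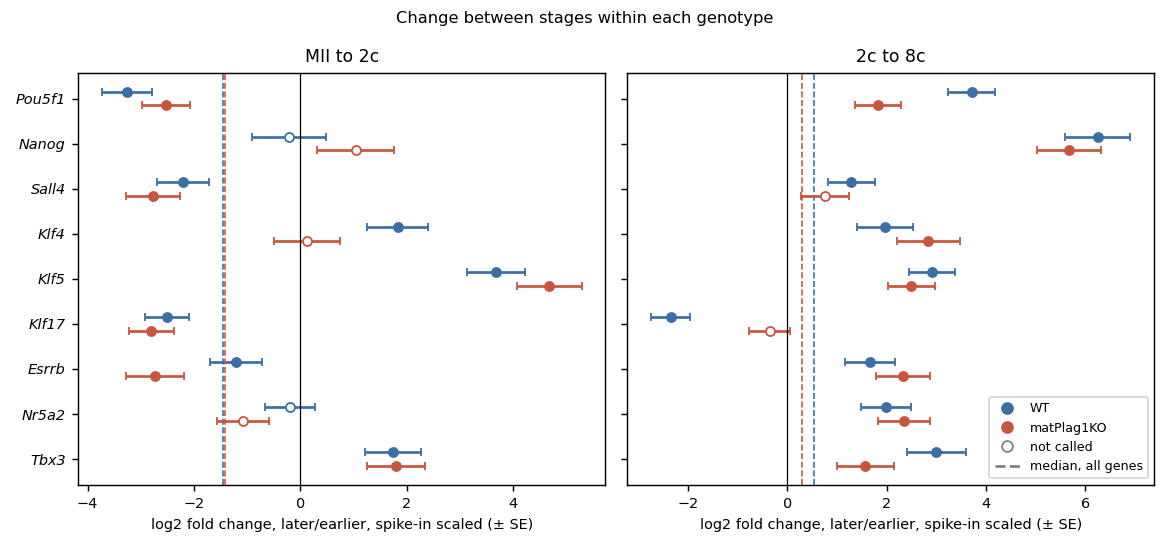
Change of the 9 tested members between stages within each genotype. The horizontal axis is the spike-in scaled log2 fold change of the later over the earlier stage with its SE, filled points passed the test, and dashed lines are the medians over all genes. Nanog rose most and Klf17 alone fell from 2c to 8c in WT.

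Pou5f1 was detected in every kept library. In oocytes it stood at 221, 602 and 1134 CPM in WT and at 149.5, 459 and 1452 CPM in matPlag1KO. At 2c it stood at 75.1, 118.5 and 448 CPM in WT and at 100.1, 208 and 1220 CPM in embryos labelled matPlag1KO. WT 8c embryos reached 471, 961 and 2859 CPM, and matPlag1KO 8c embryos 85.6, 375 and 1964 CPM. The pattern was a dip at 2c between a maternal and an embryonic level. Against the spike-in RNA, Pou5f1 fell by 3.25 (SE 0.47, adjusted p 5.937e-09) on the log2 scale from MII to 2c in WT and rose by 3.71 (SE 0.48, adjusted p 3.408e-10) from 2c to 8c. All 15 WT 8c embryos were above the highest WT 2c embryo in counts per 1000 spike-in counts, and 5 of 11 matPlag1KO 8c embryos were above the highest 2c embryo of their label. In matPlag1KO it fell by 2.53 (SE 0.45, adjusted p 1.445e-06), where TMM scaling gave -0.65 (adjusted p 0.1395), and then rose by 1.82 (SE 0.46, adjusted p 0.0006026). The 8c and MII levels of Pou5f1 did not pass the test against each other in WT (0.46, SE 0.37, adjusted p 0.2627) or in matPlag1KO (-0.72, SE 0.42, adjusted p 0.123), although TMM scaling gave 1.04 in WT (adjusted p 0.003051).

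Nanog, the homeobox factor of the naive state, appeared at 8c. It had 4 counts in 2 of 16 WT oocytes, 1 count in 14 matPlag1KO oocytes, 2 counts in 2 of 11 WT 2c embryos and 3 counts in 1 of 11 2c embryos labelled matPlag1KO. At 8c it was counted in 15 of 15 WT embryos (19.7, 70.1 and 124 CPM, 420 counts) and in 11 of 11 matPlag1KO embryos (21.5, 48.0 and 115 CPM, 222 counts). Every 8c embryo of both genotypes was above the highest 2c embryo of its label. The ratio of 8c to 2c counts per spike-in count was 127 in WT (95% exact interval 34.9 to 1052) and 75.6 in matPlag1KO (25.5 to 369), where the intervals cover counting error only. The test passed in both genotypes (adjusted p 1.877e-13 and 4.714e-12). The change from MII to 2c did not pass in either genotype with spike-in scaling, while TMM scaling called Nanog higher at 2c in matPlag1KO (adjusted p 0.02712) on those few counts.

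Sox2, the partner of OCT4, was not detectable as a pattern at this depth. It had no count in any WT oocyte or embryo and none in matPlag1KO 8c embryos, and only 1 count in matPlag1KO oocytes and 3 counts in 2 of 11 2c embryos labelled matPlag1KO. A count of 0 allows up to 0.2985 CPM in WT oocytes, 1.81 CPM at WT 2c, 0.371 CPM at WT 8c and 0.665 CPM at matPlag1KO 8c, taking 3 counts of the group total as the limit. The matPlag1KO 2c count corresponds to 1.60 CPM (95% exact interval 0.330 to 4.68), which overlaps the limit in WT.

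Sall4, a zinc finger factor already stored in the oocyte, was counted in every library and spanned a narrow range of medians. WT stood at 46.9, 180 and 625 CPM in oocytes, 49.1, 118 and 448 CPM at 2c and 61.8, 263 and 452 CPM at 8c. The matPlag1KO levels were 119.5, 356 and 679 CPM, then 77.0, 235 and 328 CPM, then 60.3, 243 and 364 CPM. The ranges of all 6 groups overlapped. Against the spike-in RNA Sall4 fell by 2.21 (SE 0.49, adjusted p 5.822e-05) from MII to 2c in WT and by 2.77 (SE 0.50, adjusted p 1.996e-06) in matPlag1KO, whereas with TMM scaling the WT value was -0.24 (adjusted p 0.5771). The WT rise from 2c to 8c was 1.29 (SE 0.47, adjusted p 0.01851), and TMM scaling gave 0.36 (adjusted p 0.3865). At WT 8c Sall4 was lower than in oocytes with spike-in scaling (-0.92, adjusted p 0.04128) and turned to 0.12 with TMM scaling (adjusted p 0.7334).

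The Krüppel-like factors followed different courses. Klf5, which takes part in both inner cell mass and trophectoderm, had 5 counts in 2 of 16 WT oocytes and 2 counts in 2 of 14 matPlag1KO oocytes. It was counted in 11 of 11 WT 2c embryos (4.56, 21.9 and 60.4 CPM) and in 10 of 11 labelled matPlag1KO (0, 23.1 and 60.0 CPM). At 8c it stood at 35.5, 112 and 233 CPM in WT and 45.3, 106 and 167 CPM in matPlag1KO. Its rise to 2c had an adjusted p of 1.26e-08 in WT and 2.32e-10 in matPlag1KO, and its further rise to 8c was 2.91 (SE 0.47, adjusted p 1.492e-07) and 2.50 (SE 0.47, adjusted p 6.34e-06). Of the WT 8c embryos, 14 of 15 lay above the highest WT 2c embryo per spike-in count.

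Klf4, a reprogramming factor, was counted in 7 of 16 WT oocytes (0, 0 and 11.6 CPM) and 12 of 14 matPlag1KO oocytes (0, 2.12 and 7.35 CPM). At 2c it was counted in 10 of 11 WT (0, 21.2 and 99.3 CPM) and 8 of 11 embryos labelled matPlag1KO (0, 7.97 and 42.4 CPM), and at 8c in all of them (21.4, 53.9 and 157 CPM, and 15.1, 36.1 and 139 CPM). The rise from MII to 2c was called in WT (1.83, SE 0.58, adjusted p 0.004329) and not in matPlag1KO (0.12, SE 0.62, adjusted p 0.8898), where TMM scaling gave 1.87 (adjusted p 0.003115). The difference between those changes did not pass the test (-1.69, SE 0.77, adjusted p 0.2215). From 2c to 8c Klf4 rose by 1.97 (SE 0.57) in WT and by 2.84 (SE 0.63) in matPlag1KO, with adjusted p of 0.002698 and 0.0001202.

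Klf17, a Krüppel-like factor of oocytes and early cleavage embryos, ran the other way. WT oocytes held 292, 851 and 4610 CPM, WT 2c embryos 190, 355 and 1176 CPM, and WT 8c embryos 4.47, 29.4 and 134.5 CPM. In matPlag1KO the levels were 251, 613.5 and 1044 CPM, then 134, 306 and 485 CPM, then 38.0, 85.9 and 258 CPM. All 15 WT and all 11 matPlag1KO 8c embryos lay below the lowest oocyte of their genotype per spike-in count. Klf17 fell by 2.50 (SE 0.41, adjusted p 1.651e-07) from MII to 2c and by 2.35 (SE 0.39, adjusted p 2.781e-07) from 2c to 8c in WT. In matPlag1KO the first fall was 2.80 (SE 0.42, adjusted p 1.939e-08), and the value from 2c to 8c was -0.36 (SE 0.41, adjusted p 0.4814), which with TMM scaling was -1.26 (adjusted p 0.003965).

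The orphan nuclear receptors Esrrb and Nr5a2, which bind a shared kind of DNA site, rose from 2c to 8c. Esrrb stood at 2.91, 35.1 and 70.4 CPM in WT oocytes, 0, 34.7 and 216 CPM at 2c and 22.1, 92.9 and 199.5 CPM at 8c. In matPlag1KO it stood at 12.7, 43.6 and 83.6 CPM, then 6.69, 23.1 and 55.4 CPM, then 38.8, 73.0 and 166 CPM. Its rise from 2c to 8c was 1.66 (SE 0.50, adjusted p 0.004305) in WT, where TMM scaling gave 0.80 (adjusted p 0.06516), and 2.33 (SE 0.55, adjusted p 0.00027) in matPlag1KO. The preceding fall in WT (-1.20, SE 0.49, adjusted p 0.02744) turned to 0.61 with TMM scaling (adjusted p 0.1569), and that in matPlag1KO was -2.73 (SE 0.54, adjusted p 9.911e-06), with -0.83 under TMM scaling (adjusted p 0.07552).

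Nr5a2 (the gene of LRH-1) was counted in every library. WT stood at 4.00, 90.5 and 349 CPM in oocytes, 125, 305 and 1012 CPM at 2c and 274, 563.5 and 2008 CPM at 8c, and matPlag1KO at 17.5, 105 and 183 CPM, then 31.9, 147 and 388 CPM, then 168, 329 and 1407 CPM. Medians thus increased with stage in both genotypes, with overlapping ranges. Per spike-in count the change from MII to 2c was not called in WT (-0.20, SE 0.47, adjusted p 0.7282) or matPlag1KO (-1.07, SE 0.49, adjusted p 0.05034), and TMM scaling turned both to a rise (1.58, adjusted p 0.0001861, and 0.89, adjusted p 0.04852). Still per spike-in count, the matPlag1KO fall was called with every library kept (-1.12, adjusted p 0.02991) and by DESeq2 (-1.08, adjusted p 0.04017). It was also called by the likelihood ratio test, with plate as a term and with only the groups compared, but not with either plate alone. From 2c to 8c Nr5a2 rose by 1.99 (SE 0.50, adjusted p 0.0006256) in WT and by 2.35 (SE 0.53, adjusted p 0.0001517) in matPlag1KO. Granulosa cells also use Nr5a2. Cumulus cells were removed with hyaluronidase by the protocol, and none of the 5 tested markers of these cells was called between the genotypes in oocytes. Their part in the oocyte level of Nr5a2 was not tested.

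Tbx3, a T-box factor of inner cell mass and stem cells, rose at each step. WT oocytes held 0, 11.1 and 28.3 CPM, WT 2c embryos 22.5, 67.0 and 488 CPM and WT 8c embryos 108, 595 and 1866 CPM. The matPlag1KO groups held 3.68, 6.27 and 27.7 CPM, then 20.4, 173 and 276 CPM, then 62.9, 187.5 and 711 CPM. Its WT rises were 1.75 (SE 0.53, adjusted p 0.002945) to 2c and 3.0 (SE 0.59, adjusted p 1.187e-05) to 8c. In matPlag1KO they were 1.80 (SE 0.55, adjusted p 0.003465) and 1.57 (SE 0.58, adjusted p 0.01933), the latter being 0.72 with TMM scaling (adjusted p 0.1669).

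At 8c Klf17 and Tbx3 were called between the genotypes, 2 of 9 tested members, against 1.74% of all genes, with each library as a replicate. Klf17 was higher in matPlag1KO, as were 1.21% of all genes, with a log2 fold change of 1.32 (SE 0.36, 2.49-fold, adjusted p 0.0343). All 11 matPlag1KO embryos were above the WT median of 29.4 CPM and 4 were above the highest WT embryo, while 9 of 15 WT embryos were below the lowest matPlag1KO embryo. The median was higher in matPlag1KO within plate A (79.2 against 43.0 CPM) and within plate B (153 against 25.2 CPM). Tbx3 was lower in matPlag1KO, as were 0.527% of all genes, with a log2 fold change of -1.44 (SE 0.42, adjusted p 0.04695). Of the 11 matPlag1KO embryos, 10 were below the WT median of 595 CPM and 4 were below the lowest WT embryo, and 5 of 15 WT embryos were above the highest matPlag1KO embryo. The medians were 160.5 against 595 CPM in plate A and 187.5 against 539 CPM in plate B. Both pairs of groups overlapped.

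Neither call at 8c held when libraries of the same well were counted as 1 replicate. In 12 wells the 8c libraries of plates A and B were of the same genotype, and with the plate removed all 12 pairs deviated together (lowest r 0.1043). Summed by well (8 WT and 6 matPlag1KO wells), Klf17 was at 1.34 (SE 0.46, adjusted p 0.2572) and Tbx3 at -1.49 (SE 0.55, adjusted p 0.3088), and 26 of all genes were called. Each call was also lost when a single library was left out. Without the matPlag1KO embryo with the highest Klf17 (258 CPM), the difference was 1.15 (SE 0.36, adjusted p 0.08311), and without the WT embryo with the highest Tbx3 (1866 CPM), it was -1.24 (SE 0.41, adjusted p 0.104). Of 11 other settings Klf17 was called in 7 and Tbx3 in 5, always with the same sign. Markers of the 8c stage also differed, with each library as a replicate. Krt18, Krt8 and Cdx2, the simple epithelial keratins and a trophectoderm factor, were lower in matPlag1KO (3 of 8 markers called), and none was higher. Their log2 fold changes were -1.91, -1.91 and -2.00 (adjusted p 0.01153, 0.02577 and 0.04705). Over all genes 0.527% were lower and 1.21% higher. The marker calls were not examined with wells summed. The summed level of the 8 markers was 409 to 1551 CPM in WT (median 927 CPM) and 233 to 1260 CPM in matPlag1KO (median 600 CPM). Among 10 oocyte markers Oog1 was higher and Zp1 lower, and the sum was 50.4 to 606 CPM in WT and 125 to 537 CPM in matPlag1KO (medians 161.5 and 248.5 CPM). Oog1 alone had 8c medians of 51.4 CPM in WT and 87.7 CPM in matPlag1KO. Its WT medians were 20.4 CPM in oocytes and 3089 CPM at 2c, so here it was not highest in oocytes. With spike-in scaling 1 of the 8 markers of the 8c stage was called. Their part in the differences of Klf17 and Tbx3 was not tested.

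The other 7 tested members were not called at 8c. Pou5f1 had the largest difference among them (-0.94, SE 0.36, adjusted p 0.1726), with 6 of 11 matPlag1KO embryos below the lowest WT embryo and 3 of 15 WT embryos above the highest matPlag1KO embryo. Klf5 was nearest to 0 (-0.04, SE 0.32, adjusted p 1). Nanog (-0.24, SE 0.35), Sall4 (-0.24, SE 0.33), Esrrb (-0.39, SE 0.36), Klf4 (-0.47, SE 0.42) and Nr5a2 (-0.48, SE 0.37) had adjusted p between 0.5962 and 0.84.

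**Figure D4:**
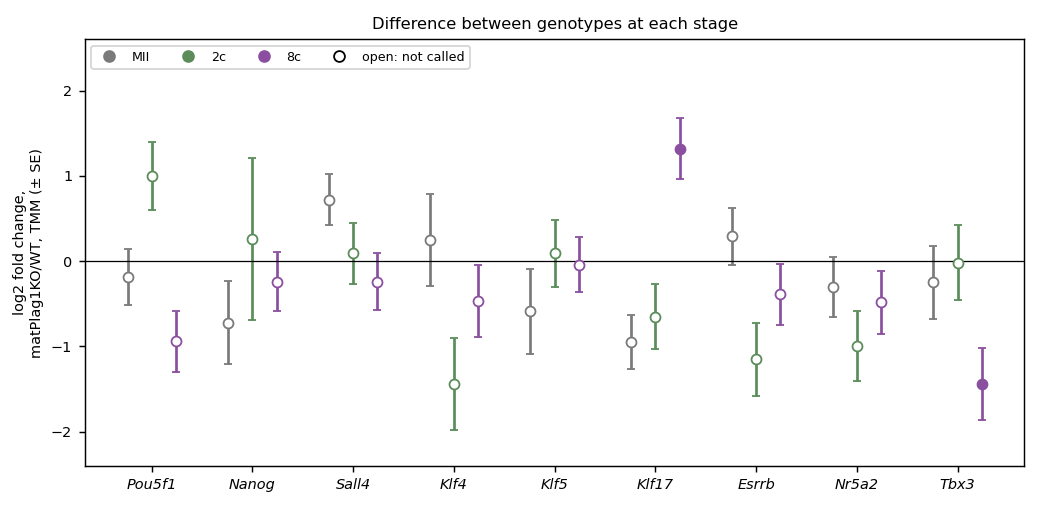
Difference between genotypes for the 9 tested members at MII, 2c and 8c. The vertical axis is the log2 fold change of matPlag1KO over WT with TMM scaling and its SE, and only the filled points, Klf17 and Tbx3 at 8c, passed the test. The values of Pou5f1, Klf17, Nanog, Klf5 and Sall4 change sign between 2c and 8c. That change was called for Pou5f1 and Klf17 only, with each library as a replicate.

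At 2c, the stage with the most genotype calls over all genes (4.92%), none of the 9 tested members was called, with each library as a replicate. By edgeR 4 of them had an unadjusted p under 0.05, as had 3380 of 16511 genes, and DESeq2 called none as well. Esrrb (-1.15, SE 0.43, adjusted p 0.095), Klf4 (-1.44, SE 0.54, adjusted p 0.0971) and Nr5a2 (-1.0, SE 0.41, adjusted p 0.1379) had negative values in embryos labelled matPlag1KO. With every library kept Esrrb was at -0.46 and Klf4 at -0.64, and Klf4 was at -2.95 in plate A and -0.72 in plate B. In the kept libraries 9 of 11 of the embryos labelled matPlag1KO were below the WT median for each of the 3 genes. Pou5f1 had a positive value (1.00, SE 0.40, adjusted p 0.1162), with 10 of 11 embryos above the WT median and 5 of 11 WT embryos below the lowest embryo labelled matPlag1KO. Klf17 was at -0.65 (SE 0.38, adjusted p 0.3157). Nanog (0.26), Klf5 (0.09), Sall4 (0.09) and Tbx3 (-0.02) were near 0 with SE of 0.95, 0.39, 0.36 and 0.44. Fitted with the 2c groups alone, Pou5f1 (1.08, adjusted p 0.02794) and Nr5a2 (-0.95, adjusted p 0.04748) passed the test.

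In MII oocytes no member was called either, where 0.781% of all genes were. Klf17 had the lowest p (-0.95, SE 0.32, p 0.003893, adjusted p 0.1717), with 13 of 14 matPlag1KO oocytes below the WT median and 7 of 16 WT oocytes above the highest matPlag1KO oocyte. The medians of Klf17 were 652 CPM in WT and 638 CPM in matPlag1KO within plate A and 1206 and 533.5 CPM within plate B. Sall4 was at 0.72 (SE 0.30, adjusted p 0.3527), with 12 of 14 matPlag1KO oocytes above the WT median, and higher in matPlag1KO within plate A (medians 392 against 241 CPM) and plate B (288 against 160 CPM). By edgeR 2 members and 1690 of all genes had an unadjusted p under 0.05, and DESeq2 called no member. Oocytes in the same well of plates A and B had opposite genotypes and deviated together. When wells were paired as a block and plate was included in the model (14 pairs), Klf17 was called lower (-0.62, SE 0.11, adjusted p 9.454e-07) and Sall4 higher (0.74, SE 0.13, adjusted p 3.542e-06), where 4.9% of all genes were called. Without the well that held the highest Klf17 library, the values were -0.55 (adjusted p 0.0001227) and 0.72 (adjusted p 1.932e-05). With spike-in scaling and no block, the Klf17 value was -0.23 (adjusted p 0.8277). The remaining 7 tested members had values from -0.72 (Nanog, on 5 counts in all) to 0.29 (Esrrb).

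The change of the genotype difference between 2c and 8c was called for Pou5f1 and Klf17, 2 of 9 members, where 2.3% of all genes were, with each library as a replicate. For Pou5f1 the difference moved from 1.00 at 2c to -0.94 at 8c (change -1.95, SE 0.54, adjusted p 0.03061), and for Klf17 from -0.65 to 1.32 (change 1.97, SE 0.52, adjusted p 0.02451). Tbx3 moved from -0.02 to -1.44, which was not called (-1.42, SE 0.60, adjusted p 0.1857). The values were similar with spike-in scaling (-1.89 and 1.99), but neither passed the test there (adjusted p 0.1186 and 0.06693). With the 8c libraries summed by well the changes were -2.06 (SE 0.64, adjusted p 0.1045) for Pou5f1 and 1.98 (SE 0.58, adjusted p 0.09056) for Klf17, and 80 of all genes were called. Pou5f1 also lost the call without the 2c embryo labelled matPlag1KO with the highest level (1220 CPM, change -1.54, adjusted p 0.09285), and Klf17 without the highest WT 2c embryo (1176 CPM, change 1.72, adjusted p 0.05385). Between MII and 2c no member was called for this change, against 3.31% of all genes. The closest was Esrrb (-1.44, SE 0.54, adjusted p 0.1227), and DESeq2 called 0 members as well. By edgeR 3 members (Pou5f1, Klf4 and Esrrb) and 2923 of all genes had an unadjusted p under 0.05.

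**Figure D5:**
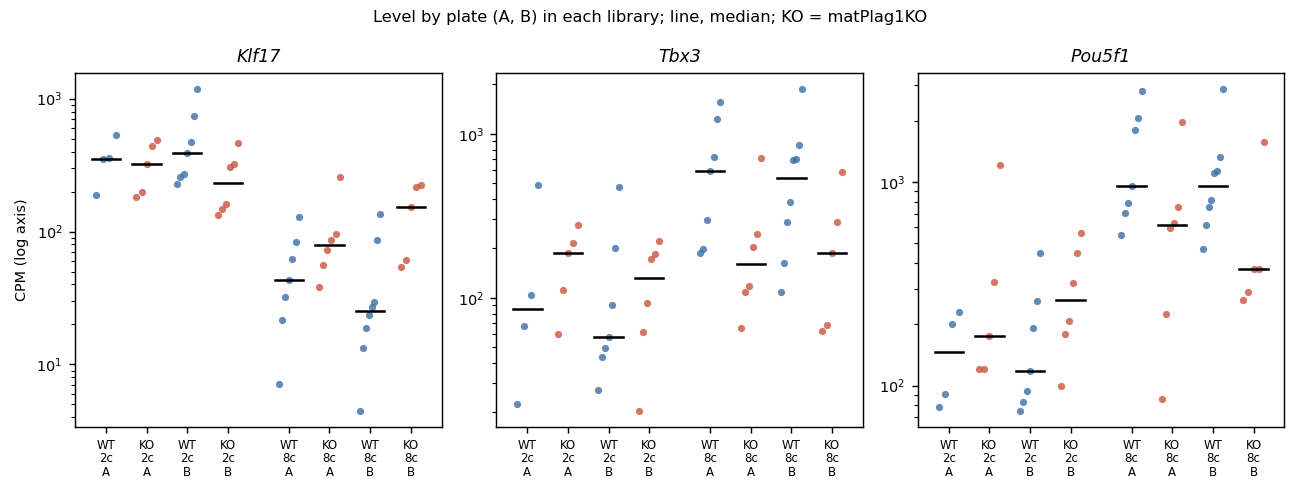
Level of Klf17, Tbx3 and Pou5f1 in each 2c and 8c library, in CPM on a log axis, by plate (A and B) and genotype (WT blue, matPlag1KO red), with medians as lines. At 8c the matPlag1KO median is above WT for Klf17 and below WT for Tbx3 and Pou5f1 in both plates, and single libraries reach far from the rest.

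Other genes of the network were read from lists that were chosen with earlier results of these data known. Of 28 tested regulators of pluripotency, 6 were called between the genotypes at 2c, where 4.92% of all genes were. In embryos labelled matPlag1KO 3 were higher and 3 lower, beside 2.3% and 2.62% of all genes. Dppa2, Dppa5a and Dppa4, which are developmental pluripotency-associated genes, were lower (-1.57, -1.72 and -1.39, adjusted p 0.0001271, 0.00188 and 0.00482), and Utf1, a chromatin factor of undifferentiated cells, was higher (1.75, adjusted p 0.01759). Their 2c medians were 481 CPM in WT and 135 CPM in embryos labelled matPlag1KO for Dppa2, 999.5 and 290 CPM for Dppa5a, 357.5 and 97.5 CPM for Dppa4, and 6.93 and 49.1 CPM for Utf1. No regulator was called in oocytes or at 8c. The median over the list was 0.16 at 2c, beside 0.12 over all genes, and spike-in scaling left 1 higher and 2 lower. From 2c to 8c in WT, 13 regulators rose and 4 fell (31.9% and 16.2% of all genes, median 0.73, all genes 0.53). With TMM scaling 11 rose and 7 fell (3475 and 4767 of 16511 genes), and the median turned to -0.14 (all genes -0.12). Tfcp2l1 (6.75), Utf1 (4.53) and Zfp42 (4.15) rose and Tcl1 (-6.17) fell, with adjusted p between 5.69e-25 and 1.501e-11. In matPlag1KO, 12 rose and 4 fell (29.1% and 19.5% of all genes, median 0.81, all genes 0.30).

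The signals and receptors of the network were not called between the genotypes at any stage (14 of 16 tested). From 2c to 8c in WT, 5 of 14 rose and 1 fell, beside 31.9% and 16.2% of all genes. With TMM scaling 3 rose and 1 fell, beside 3475 and 4767 of 16511 genes. Tdgf1, a Nodal co-receptor (6.01, adjusted p 3.072e-10), Gdf3, a TGF-beta ligand (4.07, adjusted p 6.047e-08) and Fgfr2, an FGF receptor (3.76, adjusted p 2.843e-06), rose, while Il6st, the shared receptor of LIF and IL6 (-2.77, adjusted p 0.0005002), fell. The list had a median of 1.28, beside 0.53 over all genes.

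Among 12 tested paralogues of the Krüppel-like members, 7 rose and 3 fell from 2c to 8c in WT, beside 31.9% and 16.2% of all genes (median 2.19). They were led by Klf2 (4.78, adjusted p 3.214e-08), which is also among the regulators. TMM scaling gave 5 rising and 3 falling, beside 3475 and 4767 of 16511 genes. In matPlag1KO 4 rose and 4 fell, beside 29.1% and 19.5% of all genes, with a median of 0.33. With TMM scaling 2 rose and 4 fell (3501 and 5008 of 16511 genes), and the median turned to -0.12. Between the genotypes Klf10, a TGF-beta-inducible member of the family, was the single call, higher in 2c embryos labelled matPlag1KO (2.89, adjusted p 0.001898, medians 115 against 18.8 CPM), where 2.3% of all genes were. Of 18 tested SOX and POU paralogues, Sox1 and Pou2f1 were called higher at 2c, Pou2f3, Sox30 and Sox11 were called higher at 8c, and none lower. Over all genes 2.3% were higher at 2c and 1.21% at 8c, with each library as a replicate. Sox1 rested on 12 counts in 3 of 11 embryos labelled matPlag1KO, Sox30 on 10 counts and Sox11 on 6 counts in 2 of 11 matPlag1KO 8c embryos each, with none in WT at those stages. With spike-in scaling no SOX or POU paralogue was called at 2c and 2 were at 8c. Sox15, another SOX gene, rose from a median of 57.5 CPM at 2c to 909 CPM at 8c in WT (4.89 per spike-in count, adjusted p 2.991e-11), and stood at 1178 CPM in matPlag1KO at 8c. The SOX and POU list had 6 rising and 4 falling genes from 2c to 8c in WT (31.9% and 16.2% of all genes). With TMM scaling 3 rose and 4 fell, beside 3475 and 4767 of 16511 genes. Of 14 tested paralogues of the remaining members, Tbx20 was lower in matPlag1KO at 8c (-1.74, adjusted p 0.04216, medians 48.1 against 317 CPM), without a call under spike-in scaling. Tbx19 was called higher on 32 counts in 3 of 11 matPlag1KO embryos against 3 counts in 2 of 15 WT embryos, with a median of 0 in both. In these 8c calls each library was a replicate, and over all genes 0.527% were lower and 1.21% higher.

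Of the stage markers, 7 of 8 for 8c rose and 7 of 10 for oocytes fell from 2c to 8c in WT, while 3 of 4 tested 2c markers rose from MII to 2c and 3 of 4 fell from 2c to 8c. Over all genes 31.9% rose and 16.2% fell from 2c to 8c in WT, and 14.1% rose from MII to 2c. Between the genotypes at 2c, 1 of 10 oocyte markers (Bmp15) and 1 of 4 tested 2c markers (Tdpoz4) were higher in embryos labelled matPlag1KO, where 2.3% of all genes were. The summed level of the 2c markers was 78.1 to 990.5 CPM in WT (median 203 CPM) and 241 to 1423 CPM in those embryos (median 498 CPM). Their part in the 2c values of Pou5f1 and Nr5a2 was not tested. Cumulus and granulosa markers were not called between the genotypes at any stage (5 of 12 tested).

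The genes most like each member were ranked by Pearson's r of log2(CPM + 1) over the 78 libraries, among 10840 genes with a mean of at least 10 CPM in some group. These correlations run over libraries that share stage, depth and plate and are given as a description. Nanog was closest to 2200002D01Rik (r 0.956), Klf5 to Renbp, Cct6a and Stmn3 (0.939 to 0.954), and Tbx3 to Snf8, Gm2a and Map1lc3a (0.886 to 0.888). Klf17 was closest to Pakap, Tgfb2 and Nexn (0.872 to 0.881) and Klf4 to Fam57b, Mylpf and C330021F23Rik (0.833 to 0.854). The highest r was lower for the remaining members, with 0.779 for Nr5a2 (Mpdu1, then Necap1 and Arih2), 0.712 for Sall4 (Cherp, then Wdr91 and Syvn1), 0.703 for Pou5f1 (Aup1, then Ap2s1 and Csrp1) and 0.683 for Esrrb (Ptgis, then Mrps31 and Ppt2). No member was among these matches.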

How the data were processed

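RNA was counted in 90 single oocytes or embryos by STRT, which tags 5′ ends with molecular identifiers. Per the paper's methods, the authors joined identifiers, mapped reads to mm9 with TopHat and summed them per gene with HOMER, and deposited raw counts per gene. Versions and the handling of multiply mapped reads are not given in the sources used here.

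Here 12 libraries with a median below 1 CPM were left out, and of 24422 genes the 16511 that reached 1 CPM in 5 or more of the remaining 78 entered the tests. The quasi-likelihood test of edgeR 4.0.16 (R 4.3.3) was fitted over the 6 groups. TMM scaling was used between genotypes, and the summed counts of 92 ERCC spike-ins served as library size between stages. Benjamini-Hochberg adjustment ran over all tested genes, and calls had adjusted p under 0.05. SE was derived from the fold change and its F statistic. Intervals (95%, exact) and floors (3 counts) cover counting error only.

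All members were described in every comparison. For each list, counts by direction and up to 4 called genes with the smallest adjusted p were named, and some genes are not reported here. The lists were pluripotency regulators, signals and receptors, 3 sets of paralogues, and oocyte, 2c, 8c and cumulus or granulosa markers. The members and lists were chosen with earlier results of these data known. Same-well oocytes on the plates were of opposite genotype, and with the plate removed all 14 pairs had correlated deviations from their group means (lowest r 0.1475), against 12 of 14 with the plate kept (lowest r -0.0562), so wells were taken as pairs in oocytes, from the data rather than the labels. At 8c same-well libraries shared a genotype and also deviated together (12 of 12 pairs with the plate removed, 7 of 12 over 0.1 without), so a fit with 8c wells summed was added after seeing the data. That fit covered the genotype comparison at 8c and the change between 2c and 8c, and not the comparisons of stages. At 2c most same-well pairs shared a genotype. With the plate removed 5 of 8 pairs had r over 0.1 (lowest 0.0248), against 3 with the plate kept (lowest -0.128). The 2c wells were neither paired nor summed, so every fit counted each 2c library as a replicate. How far linked wells bear on the 2c results was not tested.

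Alternatives covered all libraries, no filter, the likelihood ratio test, DESeq2 1.42.0, plates, the groups compared alone, other scalings and left-out libraries. The tests were also tried on simulated data.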

Additional observations from a re-analysis of the deposited data

Results flagged for a closer look

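The genotype difference of a pair of members changed between 2c and 8c by a test of the difference between stages in edgeR's quasi-likelihood fit. For Pou5f1 the value at 8c minus that at 2c was -1.95 on the log2 scale (SE 0.54, adjusted p 0.03061), and for Klf17 it was 1.97 (SE 0.52, adjusted p 0.02451). In 9 of 12 other settings each was called, with values of -2.39 to -1.54 for Pou5f1 (adjusted p 0.006699 to 0.1186) and of 1.72 to 2.17 for Klf17 (adjusted p 0.009262 to 0.09056). Neither was called with spike-in scaling or with the 8c libraries of a well summed. Each call was also lost without a single library. Pou5f1 lost it without the highest 2c embryo labelled matPlag1KO (-1.54, adjusted p 0.09285), and Klf17 without the highest WT 2c embryo (1.72, adjusted p 0.05385).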

How the results depend on the processing

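The number of members called between genotypes in oocytes was 0, but 1 with plate B alone and 2 with wells paired as a replicate block in a model with plate. At 2c it was 0, but 2 with only the groups compared and 1 with median-ratio scaling. At 8c it was 2, but 1 with every library kept, with no filter, with spike-in scaling or with median-ratio scaling, and 0 with plate A alone, with plate B alone, with the 8c libraries of a well summed or without the highest library of each called member. Few genes of any kind were called at 8c in the smaller sets. Plate A alone called 4 higher and 2 lower of 15073 genes, plate B alone 38 and 8 of 15161, and summed wells 26. Of the 9 members called between WT 2c and 8c, 5 were called with plate A alone. The 2 calls of the change in genotype difference between 2c and 8c were 0 with spike-in scaling and 0 with 8c wells summed.

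Of called values, Esrrb from MII to 2c in WT turned to 0.63 with plate B alone and 0.61 with TMM scaling, and Sall4 from MII to 8c in WT to 0.6 with plate B alone and 0.12 with TMM scaling. Nr5a2 from MII to 2c, uncalled in the report, turned to a called rise of 1.58 in WT and 0.89 in matPlag1KO with TMM scaling. With spike-in scaling kept, its matPlag1KO fall was called with every library kept (-1.12), by the likelihood ratio test (-1.07) and by DESeq2 (-1.08). It was also called with plate as a term (-1.08) and with only the groups compared (-1.07). The other sign changes were of values with no call in either setting. Between stages these were, with TMM scaling, Nanog from MII to 2c in WT (1.05), Pou5f1 and Esrrb from MII to 8c in matPlag1KO (0.28 and 0.73); with plate B alone, Nanog and Nr5a2 from MII to 2c in WT (0.77 and 0.47) and Klf17 from 2c to 8c in matPlag1KO (0.24); and with plate A alone, Esrrb from MII to 8c in WT (-0.53) and Nanog and Klf4 from MII to 2c in matPlag1KO (-1.16 and -1.43). Between genotypes in oocytes they were Pou5f1 and Nr5a2 with spike-in scaling (0.36 and 0.09), Nr5a2 with the well block (0.07), Esrrb with plate A alone (-0.28), and Klf5 and Tbx3 with plate B alone (0.61 and 0.5). At 2c they were Nanog, Klf5 and Sall4 with plate A alone (0, -0.19 and -0.14) and Tbx3 with every library kept (0.05), only the groups compared (0.03), spike-in scaling (0) and median-ratio scaling (0.2). At 8c they were Klf5 with plate A alone (0.3), only the groups compared (0.02) and median-ratio scaling (0.07). For the change between stages they were Klf17 from MII to 2c with spike-in scaling (-0.3) and Esrrb from 2c to 8c with every library kept (-0.03).

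Single plates and summed wells leave fewer libraries, and TMM removes the shift of the median gene between stages. Otherwise the cause was not tested. Of 917 values of members under alternatives, 828 kept direction and side of the threshold, 39 lost a call, 17 gained one and 33 changed sign. The fits without the highest library of each group for the change between 2c and 8c, without a well, and with wells summed were chosen after seeing the data. Depth limited Sox2, and Nanog before 8c.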

Other observations

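The 12 libraries left out for a low median held 83 to 231731 gene counts. Nanog and Sox2 had no count in any of them. Pou5f1 had 341 counts in 9 of the 12, with 223 of them in a single library, Klf17 had 290 counts in 6, of which 220 were in a single library, and Nr5a2 had 191 counts in 8.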
